A study of Homo sapiens with 8 samples.

Results

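NRF2, the transcription factor encoded by NFE2L2, and 8 genes tied to it were followed in cells of the breast cancer line MDA-MB-231, which is of human triple-negative origin, after stable knockdown of the integrin α3 subunit. The 9 genes were taken by name: NFE2L2, KEAP1, NQO1, HMOX1, GCLC, GCLM, TXNRD1, SRXN1 and FTL. The knockdown cells carried a lentiviral shRNA against α3 and the control cells a control shRNA, with 2 cultures in each group, and the labels name no clone, rescue or further hairpin. RNA of each culture was read on 1 Affymetrix Human Exon 1.0 ST array, summarised per gene (22011 transcript clusters) and per exon region (287329 probesets). Of these, 7 clusters and 118 probesets are annotated to 1 of the 9 genes alone. NFE2L2 and NQO1 have no such cluster and were read from their 11 and 9 probesets. The gene-level and exon-level values come from the same 4 arrays, so n = 2 per group throughout, and p-values measure only the spread between these cultures. In whole cultures, fewer cells of a kind and less RNA per cell cannot be told apart.

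Under resting conditions KEAP1 holds NRF2 in the cytoplasm and delivers it to a CUL3 ubiquitin ligase for degradation. Oxidants and electrophiles modify cysteines of KEAP1, and NRF2 then accumulates, pairs with small MAF proteins and binds antioxidant response elements near its target genes. These targets make glutathione (GCLC, GCLM), keep thioredoxin and peroxiredoxins reduced (TXNRD1, SRXN1), reduce quinones (NQO1), and break down heme and store the released iron (HMOX1, FTL).

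All values are PLIER intensities, the linear-scale output of the array software, which compare arrays for 1 feature but not 1 gene with another. Differences are knockdown minus control on the scale log2(intensity + 16), with limma's Benjamini-Hochberg adjusted p over all features tested and a threshold of 0.05. ITGA3, the hairpin's target, measured 619 and 644 in the knockdown arrays, against 3480 and 3529 in the control arrays. Array medians were 168 and 171 in knockdown and 177 and 186 in control, and the median log2 difference over all clusters tested was -0.06. Among all 13207 clusters tested, 5.99% were called higher and 15.3% lower, or 791 and 2016 clusters. That split became 1348 and 1680 after quantile normalization and 1586 and 1457 after centring arrays on their medians. All 6 markers of a basal, mesenchymal line were tested (VIM, CD44, AXL, MSN, CAV1 and PLAU), with summed intensities of 19626 to 19933 in knockdown and 24294 to 24732 in control, and 2 were called lower. ESR1 and PGR, which define luminal lines, were among the dim features. The 6 luminal markers summed to 3010 to 3013 in knockdown and 4343 to 4756 in control. KRT19, the brightest, made up most of each sum, at 2357 and 2342.5 in knockdown against 3812 and 4204 in control. Of the 3 tested, KRT19 was called lower, while ERBB3 (log2 difference -0.25) and GATA3 (0.22) did not pass. CDH1 was left untested as dim by its mean over all 4 arrays. It read 177 and 168 in knockdown, near the medians of those arrays, against 25.4 and 28.8 in control. The 4 leukocyte markers with a cluster summed to 1870 to 1876 in knockdown and 2140 to 2242 in control. CD68, the brightest, was called lower, at 1534 and 1450 in knockdown against 1871 and 1808 in control (adjusted p = 0.0374), while CD3E (0.26) and CD14 (0.04) did not pass. The defining leukocyte marker PTPRC was dim, at 25.1 to 27.4 in all 4 arrays. The 4 fibroblast markers summed to 290.2 to 301 in knockdown and 275 to 279 in control. The part of these markers in the results below was not tested.

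Of the 6 genes tested at the gene level, TXNRD1 and GCLM were called higher in knockdown, FTL was called lower, and KEAP1, GCLC and SRXN1 did not pass. The calls cover 2 of 6 upward, beside 5.99% of all clusters, and 1 of 6 downward, beside 15.3%. Both knockdown arrays lay above both control arrays for 2 of the 6 genes, as for 22.3% of clusters tested, and below both for 3 of the 6, as for 39.6%. The median difference of the 6 was -0.09, beside -0.06 over all clusters. HMOX1 was too dim to be tested.

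**Figure D1:**
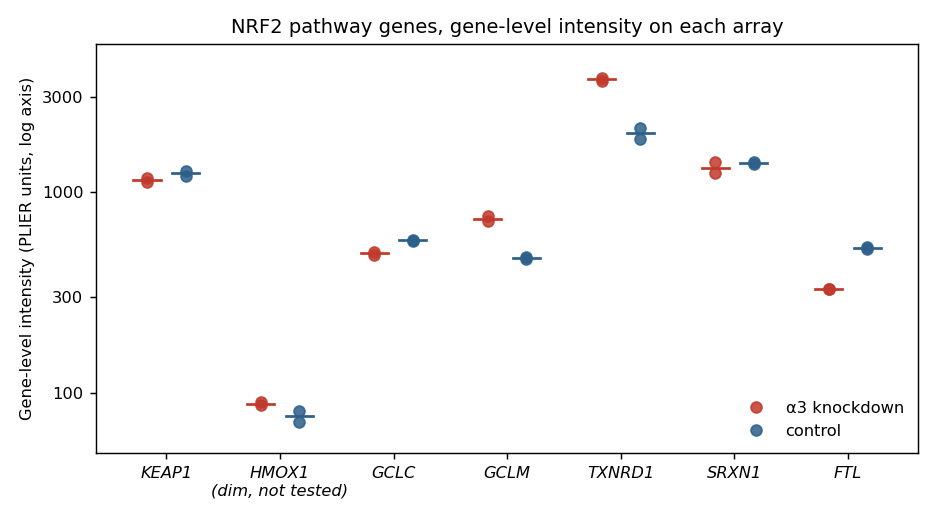
Gene-level PLIER intensity (log axis) of the 7 genes with a cluster of their own on each array, with knockdown arrays left of control arrays. Points are single arrays and bars the means of n = 2, with TXNRD1 and GCLM higher in knockdown, FTL lower, and HMOX1 below 100 on all 4 arrays.

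TXNRD1 encodes cytosolic thioredoxin reductase, the selenoprotein that passes electrons from NADPH to thioredoxin. Its cluster read 3608 and 3714 in the knockdown arrays, against 1845 and 2097 in the control arrays. The groups lay well apart, and the knockdown mean was 1.86 times the control mean. The log2 difference was 0.89 ± 0.089 (SE, adjusted p = 0.00294 in limma, n = 2 per group). TXNRD1 ranked 239th by absolute difference among the tested genes with a symbol of their own, and its call held in every alternative setting run (adjusted p 0.000452 to 0.0119).

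Nearly all of TXNRD1 was higher at the exon level. Of its 27 probesets 24 were bright enough to be tested, all 24 had a positive difference, and 23 were called higher, beside 1.33% of all 172397 probesets. Both knockdown arrays lay above both control arrays at all 24, as at 19.4% of all probesets tested. Differences ran from 0.46 to 1.32 with a median of 0.88. The 3 probesets with the lowest identifiers were dim in both groups, at 3.21 to 53.2 in knockdown and 0.845 to 60.8 in control. Probeset 3429496, with the smallest p, read 4995 and 5281 in knockdown, against 2380 and 2359 in control (log2 difference 1.11 ± 0.108 (SE), adjusted p = 0.00126 in limma). Probeset 3429493 had the largest difference, at 1335 and 1746 in knockdown, against 506 and 720 in control. The 1 tested probeset that did not pass, 3429475, read 301 and 226 in knockdown, against 164 and 210 in control (adjusted p = 0.326). The number of TXNRD1 probesets called differed between settings. It was 15 without control replicate 1, 3 with no intensity trend and 0 when dim probesets were kept in the fit, where 43 probesets of the whole array were called higher and 120 lower.

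GCLM encodes the modifier subunit of glutamate-cysteine ligase, which raises the efficiency of the first step of glutathione synthesis. It read 717 and 760 in knockdown, against 468 and 478 in control, with no overlap. The log2 difference was 0.63 ± 0.082 (SE, adjusted p = 0.00568 in limma, n = 2 per group), a ratio of means of 1.56. Without knockdown replicate 2 the difference was 0.59 and missed the threshold (adjusted p = 0.0519). At the exon level 9 of its 10 probesets were tested. In all 9 both knockdown arrays lay above both control arrays, as at 19.4% of all probesets tested. Differences ran from 0.13 to 0.83 with a median of 0.50, but only 2 passed on their own, beside 1.33% of all probesets. These were probeset 2423626, at 1352 and 1411 in knockdown against 769 and 805 in control (adjusted p = 0.0174), and probeset 2423632, at 692 and 681 in knockdown against 411 and 403 in control (adjusted p = 0.0410). With no filter, with no intensity trend, or without control replicate 1 or knockdown replicate 2, 0 GCLM probesets passed, and without control replicate 2 there was 1.

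GCLC encodes the catalytic subunit of the same ligase, and its values lay on the other side of the control. It read 488 and 505 in knockdown, against 578 and 575 in control. Both knockdown arrays lay below both control arrays, but the difference of -0.21 ± 0.080 (SE) did not pass (adjusted p = 0.118 in limma, unadjusted 95% interval -0.40 to -0.01). The GCLC difference shrank to -0.11 after centring arrays on their medians (adjusted p = 0.367 in limma) and to -0.13 after quantile normalization (0.296). At the exon level 19 of 22 tested probesets had a negative difference, and 0 were called in limma. In 14 of the 22 both knockdown arrays lay below both controls, as at 31.3% of all probesets tested. Probeset 2957717 had the smallest p among them, at 515 and 565 in knockdown against 1097 and 750 in control (adjusted p = 0.0745). The difference between the changes of GCLM and GCLC was not tested.

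**Figure D2:**
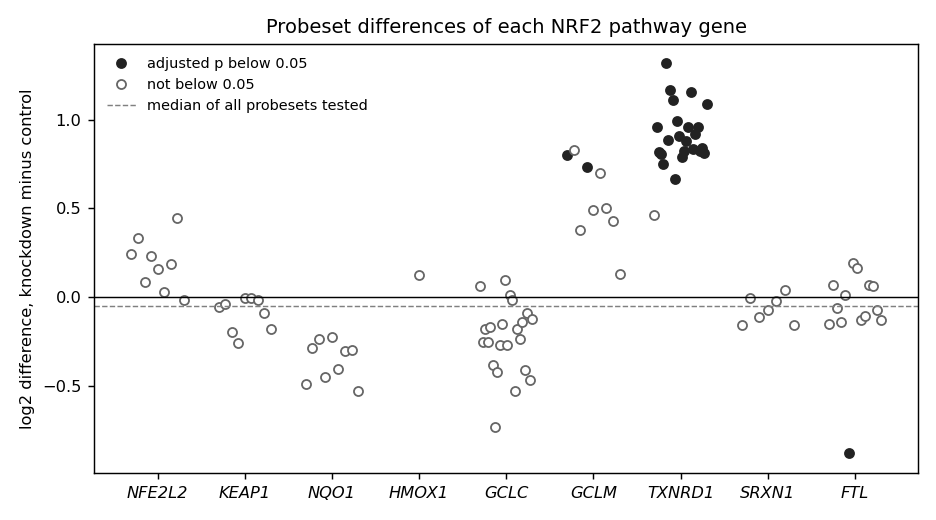
Log2 difference, knockdown minus control, of every tested probeset of the 9 genes, in order of identifier within a gene; filled points passed an adjusted p of 0.05, and the dashed line is the median of all probesets tested (-0.05). TXNRD1 and GCLM lie wholly above 0, NQO1 wholly below, and 1 FTL probeset stands apart at -0.88. KEAP1 also lies below 0, with a median of -0.06, close to that of all probesets.

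The promoters of the genes called higher are shown for their antioxidant response element letters, since this is the element NRF2 is known to bind. RefSeq promoter windows of GRCh38.p14, from 250 bases before to 50 after a start site, were matched for 8 of the 9 genes (all but HMOX1), giving 11 windows. The core TGACNNNGC was searched on both strands. It occurred in 4 of the 11 windows, belonging to GCLM, TXNRD1 and KEAP1, and in 13.3% of all 35116 windows. Each match is printed below with 10 flanking bases, 5′ to 3′ on the strand that reads TGAC, with the matched letters in capitals. Which start site these cells use was not measured.
GCLM, chr1:93909446-93909474, plus strand: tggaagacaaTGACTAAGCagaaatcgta
TXNRD1 upstream start, chr12:104215670-104215698, plus strand: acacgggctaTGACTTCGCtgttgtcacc
TXNRD1 upstream start, chr12:104215761-104215789, minus strand: ctgtgggaacTGACGGAGCcgaaggacgc
TXNRD1 downstream start, chr12:104286920-104286948, minus strand: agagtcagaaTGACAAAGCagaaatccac
KEAP1 downstream start, chr19:10502807-10502835, minus strand: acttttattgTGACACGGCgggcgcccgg
KEAP1 downstream start, chr19:10502784-10502812, plus strand: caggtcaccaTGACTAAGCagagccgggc

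The GCLM match and 1 of the KEAP1 matches share all 9 letters, and both begin within 34 bases of a start site. GCLM was called higher while KEAP1 was not. To show the context of the element in the genes called higher, the 250 bases before the GCLM start and before the downstream TXNRD1 start follow on the strand of the gene, with the letters of the match, here read from the opposite strand, in capitals.
GCLM, chr1:93909431-93909680, minus strand: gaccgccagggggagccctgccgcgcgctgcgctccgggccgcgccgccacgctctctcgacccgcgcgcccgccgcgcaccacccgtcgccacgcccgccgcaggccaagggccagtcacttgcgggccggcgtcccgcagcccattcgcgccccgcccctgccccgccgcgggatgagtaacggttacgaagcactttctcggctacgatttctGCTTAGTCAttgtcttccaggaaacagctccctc
TXNRD1, chr12:104286782-104287031, plus strand: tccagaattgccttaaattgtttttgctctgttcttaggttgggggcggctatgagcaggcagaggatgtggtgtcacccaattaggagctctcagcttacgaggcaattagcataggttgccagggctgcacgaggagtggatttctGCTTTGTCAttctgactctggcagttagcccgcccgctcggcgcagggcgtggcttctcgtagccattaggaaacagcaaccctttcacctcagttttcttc

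No match in a window says only that these letters are not in it.

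SRXN1 encodes sulfiredoxin, which repairs overoxidised peroxiredoxins and is a well-known NRF2 target. Its cluster read 1414 and 1250 in knockdown, against 1418 and 1389 in control, so the groups overlapped. The difference of -0.08 ± 0.087 (SE) did not pass (adjusted p = 0.585 in limma, 95% interval -0.29 to 0.13). All 7 of its probesets were tested and 0 passed, with differences of -0.16 to 0.04 and a smallest adjusted p of 0.578. A further probeset and cluster shared between SRXN1 and SCRT2 were not used.

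NQO1 encodes the quinone reductase often used as a readout of NRF2 activity. Its 9 probesets were all tested, all had a negative difference (-0.53 to -0.23, median -0.30), and 0 passed in limma. In 8 of the 9 both knockdown arrays lay below both control arrays, as they did at 31.3% of all probesets tested. The brightest, 3696683 and 3696678, read 3941 and 3920 and then 3583 and 3214 in knockdown, against 4404 and 5329 and then 4414 and 4866 in control. Probeset 3696687 had the smallest p, at 1245 and 1169 in knockdown against 1644 and 1855 in control (log2 difference -0.53 ± 0.134 (SE), adjusted p = 0.0613). The probesets of 1 gene are read on the same arrays and are no replicates of each other. Taking the median probeset of each array as 1 value gave 1624 and 1818 in knockdown, against 1957 and 2347 in control. That difference of -0.32 ± 0.119 (SE) did not pass either (adjusted p = 0.102, unadjusted 95% interval -0.58 to -0.05).

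Neither regulator passed the test. KEAP1, the cysteine sensor, read 1127 and 1187 in knockdown, against 1205 and 1286 in control (log2 difference -0.10 ± 0.079 (SE), adjusted p = 0.402 in limma, 95% interval -0.30 to 0.09). All 9 KEAP1 probesets had a negative difference, none beyond -0.26, and 0 passed. Their median was -0.06, beside -0.05 over all probesets tested, and the groups overlapped in 6 of the 9. In the other 3 both knockdown arrays lay below both controls, beside 31.3% of all probesets tested. After centring arrays on their medians, the gene-level KEAP1 difference was -0.007. NFE2L2 had 9 tested probesets, of which 8 had a positive difference and 0 passed in limma, with a range of -0.02 to 0.44 and a median of 0.19. Among its brightest, probeset 2588839 read 3107 and 3262 in knockdown, against 2999 and 2720 in control (adjusted p = 0.494). Probeset 2588844 had the smallest p, at 340 and 440 in knockdown against 246 and 320 in control (adjusted p = 0.299). Counting its 2 dim probesets, the median of all 11 NFE2L2 probesets fell on probeset 2588867 on every array. It read 564 and 462 in knockdown, against 581 and 458 in control. This was the 1 tested probeset with a negative difference, at -0.02 (adjusted p = 0.959 in limma's fit of medians, 95% interval -0.37 to 0.33). So this median gives no reading of NFE2L2 apart from that probeset. These are mRNA values, and NRF2 protein, which KEAP1 controls, was not measured.

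HMOX1 encodes heme oxygenase-1, which degrades heme to biliverdin, carbon monoxide and iron. Its cluster gave 90.2 and 86.8 in knockdown, against 81.6 and 71.6 in control, in the lower 40% of features by brightness. Fitted with no filter, its difference of 0.18 did not pass (adjusted p = 0.469 in limma). Of its 6 probesets 1 was bright enough to be tested, at 177 and 165 in knockdown against 190 and 127 in control, and the groups overlapped (adjusted p = 0.843). The remaining 5 gave 8.12 to 83.0 in knockdown and 14.5 to 123 in control.

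FTL encodes the light chain of ferritin, the iron store. The gene-level and exon-level data of FTL disagreed. At the gene level FTL read 332 and 331 in knockdown, against 537 and 521 in control (log2 difference -0.65 ± 0.084 (SE), adjusted p = 0.00561 in limma, n = 2 per group). Of 14 tested probesets, however, 1 was called lower, beside 3.25% of all probesets. This was probeset 3838103, at 701 and 692 in knockdown against 1335 and 1256 in control (log2 difference -0.88 ± 0.141 (SE), adjusted p = 0.0134), and it did not pass with no filter, with no intensity trend or without control replicate 1. The other 13 had differences between -0.15 and 0.19 and adjusted p of 0.356 to 0.958, and the groups overlapped in 9 of them. Both knockdown arrays lay above both controls in 1 and below both in 3, beside 19.4% and 31.3% of all probesets tested. Most of these 13 were far brighter than the gene-level value, as in probeset 3838096 at 15636 and 15209 in knockdown, against 16949 and 17268 in control.

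Taking the median probeset of each array gave FTL 4513 and 4843 in knockdown, against 4668 and 5576 in control. The difference was then -0.13 ± 0.108 (SE) and did not pass (adjusted p = 0.479, 95% interval -0.37 to 0.11). The median probeset was 14.1 times the gene-level value in knockdown and 9.68 times in control, where the other genes with both values had ratios of 0.693 to 1.14. These ratios set 1 feature against another, which PLIER intensities do not strictly compare, so they are given as a description. FTL has many processed pseudogenes of near-identical sequence, so how its probes were assigned is uncertain. The 3 FTL probesets 3874609 to 3874611 have identifiers far from the other 12.

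**Figure D3:**
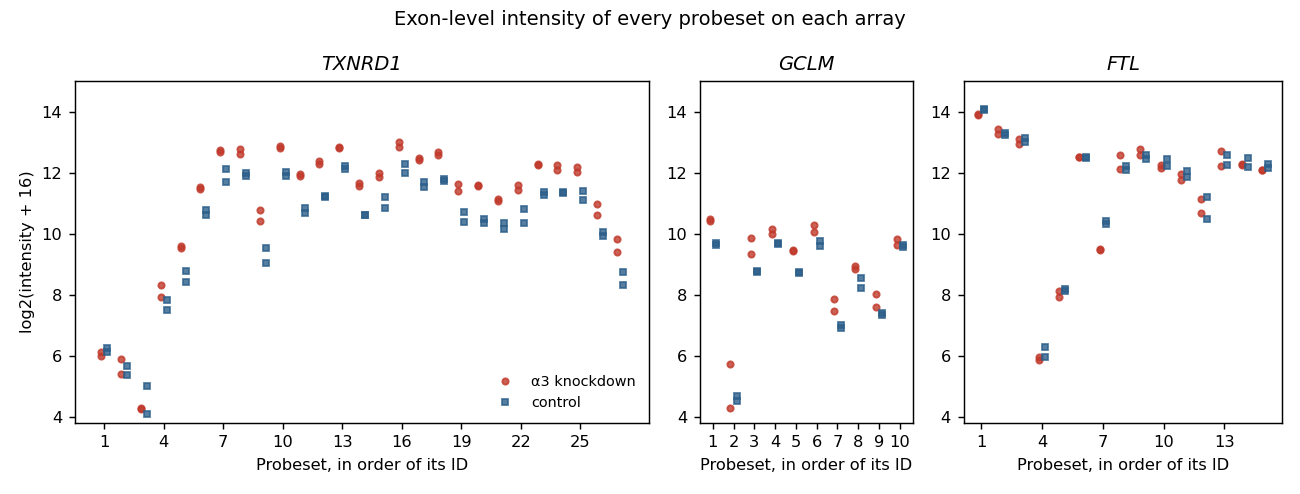
Log2(intensity + 16) of every probeset of TXNRD1, GCLM and FTL on each of the 4 arrays, in order of probeset identifier, with dim probesets included. TXNRD1 differs along its whole bright part, while FTL differs at its 7th probeset (3838103) and overlaps or lies close to the control at the others.

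Departure of single exons from the rest of their gene was tested by subtracting from each probeset the mean over its gene's other tested probesets. Among 103 probesets of these genes that entered, 0 were called, beside 0.0515% of all 155391 probesets, and 9060 of all had an unadjusted p under 0.05. FTL probeset 3838103 came closest (difference from the other FTL probesets -0.86, adjusted p = 0.167). It did pass in limma's diffSplice test of probesets (adjusted p = 0.0283).

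Exon-level medians were also fitted over all 10145 genes bright enough, as a second reading of each gene. By this measure TXNRD1 (0.92 ± 0.107 (SE), adjusted p = 0.000782 in limma) and GCLM (0.72 ± 0.126 (SE), adjusted p = 0.00542) were called higher, beside 4.78% of genes. Of the 8 that were fitted (HMOX1 was too dim), 0 were called lower, beside 10.7% of genes. GCLC (-0.28, adjusted p = 0.187), KEAP1 (-0.17, adjusted p = 0.299) and SRXN1 (-0.08, adjusted p = 0.697) kept their negative sign and did not pass.

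**Figure D4:**
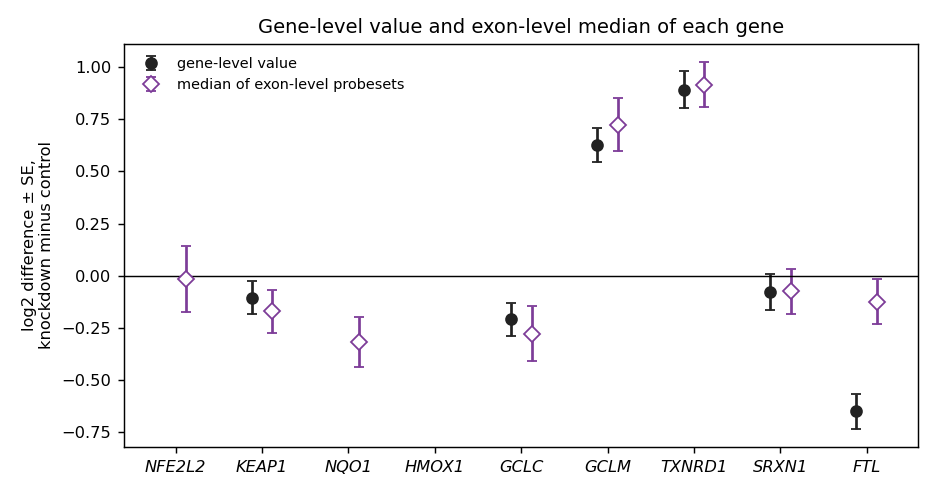
Log2 difference ± SE (n = 2 arrays per group) of each gene from its gene-level value (circles) and from the median of its exon-level probesets (diamonds); NFE2L2 and NQO1 have no cluster of their own, and HMOX1 was too dim. The readings lie close together for all genes with both except FTL, at -0.65 and -0.13.

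The genes whose 4 values followed TXNRD1 most closely were DAPK1, a death-associated protein kinase, RBM24, an RNA-binding protein, and GMFG, a regulator of branched actin. Likeness was the Euclidean distance between log2 values centred on each gene's mean over 4 arrays, at 0.0541, 0.0635 and 0.0646. DAPK1 read 461 and 459.9 in knockdown, against 217 and 259 in control. With 4 arrays in 2 groups, such likeness mostly reflects a similar difference between the groups.

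Beyond the 9 genes, 101 genes of connected pathways were listed by function, of which 77 had a cluster of their own and 70 were tested. In limma 7 were called higher, 20 lower and 43 did not pass, so 7 of 70 stand beside 5.99% and 20 of 70 beside 15.3%. Their median difference was -0.08, beside -0.06 over all clusters. After centring arrays on their medians the calls were 14 higher and 13 lower, and after quantile normalization 13 and 18. Without knockdown replicate 2 they were 3 and 5, without knockdown replicate 1 they were 5 and 6, and without control replicate 2 they were 6 and 10. Without control replicate 1 they were 4 and 18, and with no filter on dim features 5 and 13.

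Glutathione synthesis and use had 22 tested genes, with 2 higher and 5 lower, beside 5.99% and 15.3% of all clusters, and 15 not passing. SLC7A11, the cystine importer that supplies cysteine for glutathione and an NRF2 and ATF4 target, read 1373 and 1289 in knockdown, against 663 and 719 in control (log2 difference 0.93, adjusted p = 0.00227). CHAC1, which degrades glutathione and is known as an ATF4 target, read 789 and 884 in knockdown, against 417 and 427 in control (0.96, adjusted p = 0.00260). The genes called lower included MGST3, a microsomal glutathione transferase, at 801 and 787 in knockdown against 1459 and 1500 in control (-0.88, adjusted p = 0.00178). GPX8, a peroxidase of the endoplasmic reticulum, was also lower, at 344 and 338 in knockdown against 625 and 627 in control (-0.85, adjusted p = 0.00276). These 4 kept their calls in every alternative setting of the gene-level fit. The list held called genes in both directions, as did the clusters as a whole. Its median difference was -0.11, beside -0.06 over all clusters.

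In the thioredoxin and peroxiredoxin system 13 genes were tested, with 1 higher and 5 lower, beside 5.99% and 15.3% of all clusters, and 7 not passing. MSRB3, a methionine sulfoxide reductase, read 1180 and 1146 in knockdown, against 1902 and 2017 in control (log2 difference -0.74, adjusted p = 0.00316). PRDX6, a peroxiredoxin that also acts on phospholipids, read 2663 and 2628 in knockdown, against 3772 and 3714 in control (-0.50, adjusted p = 0.00755). The mitochondrial peroxiredoxin PRDX3 went the other way, at 2162 and 2445 in knockdown against 1682 and 1786 in control (0.40, adjusted p = 0.0260). PRDX3 no longer passed when control replicate 1 (adjusted p = 0.0736) or knockdown replicate 2 (0.163) was left out, or with no filter (0.0567).

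NADPH supply had 9 tested genes, with 2 higher and 4 lower, beside 5.99% and 15.3% of all clusters, and 3 not passing. MTHFD2, a mitochondrial folate enzyme, read 1872 and 1736 in knockdown, against 1092 and 1242 in control (log2 difference 0.62, adjusted p = 0.00824). NNT, the mitochondrial transhydrogenase, read 1446 and 1372 in knockdown, against 2045 and 1993 in control (-0.51, adjusted p = 0.00761). PGLS, of the pentose phosphate pathway, was lower at 246 and 225 in knockdown against 367 and 355 in control (-0.59, adjusted p = 0.0111). IDH1, cytosolic isocitrate dehydrogenase, was lower at 343 and 409.97 in knockdown against 553 and 602 in control (-0.60, adjusted p = 0.0158). Without knockdown replicate 2 the calls of NNT (adjusted p = 0.0564) and PGLS (0.0926) were lost. That of IDH1 was lost without control replicate 2 (0.0508) or knockdown replicate 1 (0.0848).

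Heme and iron genes numbered 10 tested, with 1 higher and 3 lower, beside 5.99% and 15.3% of all clusters, and 6 not passing. ALAS1, the first enzyme of heme synthesis, read 1181 and 1303 in knockdown, against 817 and 818 in control (log2 difference 0.59, adjusted p = 0.00700). BLVRB, a biliverdin reductase, read 164 and 179 in knockdown, against 247 and 269.5 in control (-0.55, adjusted p = 0.0186). The ALAS1 call was lost without knockdown replicate 2 (0.0533). The BLVRB call was lost without control replicate 2 (0.0560), knockdown replicate 1 (0.117) or knockdown replicate 2 (0.0793).

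Among the partners and regulators of NRF2, 6 were tested, with 0 higher and 1 lower, beside 5.99% and 15.3% of all clusters, and 5 not passing. MAFF, a small MAF protein, read 332 and 328 in knockdown, against 447 and 456 in control (log2 difference -0.43, adjusted p = 0.0180 in limma). Its call was lost without knockdown replicate 1 (adjusted p = 0.108) or 2 (0.137). CUL3, the ligase scaffold that acts with KEAP1, read 1641 and 1607 in knockdown, against 1376 and 1399.9 in control. The CUL3 difference of 0.22 did not pass (adjusted p = 0.0739), but passed after quantile normalization (0.0420) or centring (0.0319). BACH1, a repressor that competes for the same elements, read 902 and 884 in knockdown, against 765 and 851 in control (adjusted p = 0.288).

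The remaining lists were small, and their calls stand beside 5.99% higher and 15.3% lower over all clusters. Of 7 quinone and carbonyl detoxification genes, 1 was higher, 1 lower and 5 did not pass. UGDH, which makes UDP-glucuronate, read 843 and 963 in knockdown, against 704 and 712 in control (log2 difference 0.34, adjusted p = 0.0461). CBR1, a carbonyl reductase, read 903 and 876 in knockdown, against 1092 and 1155 in control (-0.33, adjusted p = 0.0298). UGDH lost its call without any 1 array (adjusted p = 0.0793 to 0.311), with no filter (0.0864) and with no intensity trend (0.0645). CBR1 lost its call without knockdown replicate 1 (0.127), knockdown replicate 2 (0.190) or control replicate 2 (0.0684), with no filter (0.0550) and after centring (0.0753). Of 3 superoxide and peroxide enzymes, 0 were higher, 1 was lower and 2 did not pass. SOD1, the cytosolic superoxide dismutase, read 2152 and 2225 in knockdown, against 2825 and 2799.8 in control (-0.36, adjusted p = 0.0190). Its call was lost without knockdown replicate 1 (0.114) or 2 (0.0931) and after centring (0.0670). CAT, which encodes catalase, read 648 and 694 in knockdown, against 770.3 and 940.2 in control and did not pass (adjusted p = 0.0840). It passed without control replicate 1 (0.0283).

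**Figure D5:**
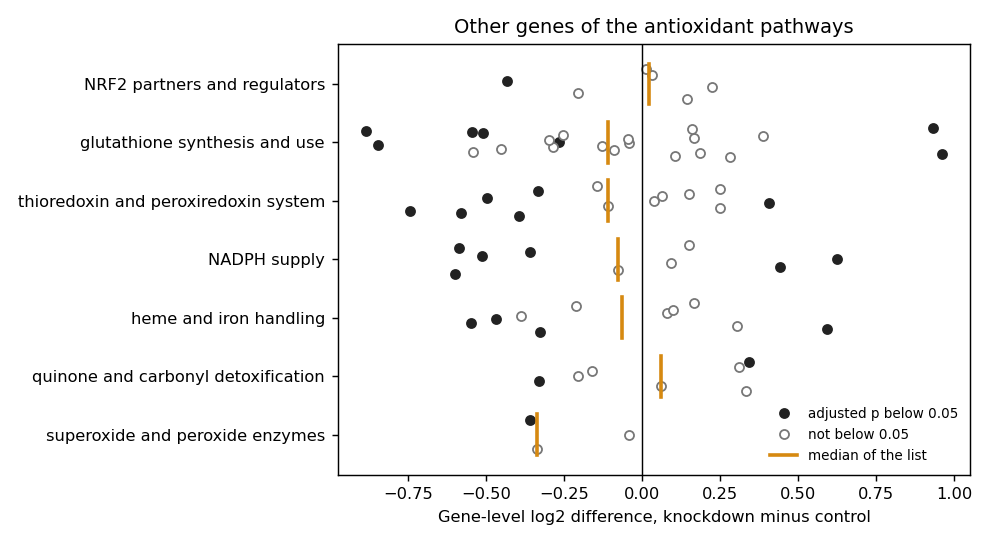
Gene-level log2 difference, knockdown minus control, of the 70 tested genes in 7 connected lists; filled points passed an adjusted p of 0.05 and orange bars are list medians. Called genes lie on both sides of 0 in 5 of the 7 lists, with SLC7A11 and CHAC1 the furthest right and MGST3 and GPX8 the furthest left. Over all clusters tested, 5.99% were called higher and 15.3% lower.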

How the data were processed

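The deposited intensities are PLIER values on a linear scale, from Affymetrix Expression Console with core gene and core exon probesets per the labels; the series description also names the Exon Array Computational Tool. Not given in the sources used here are software versions, how background was removed and whether arrays were scaled to each other. Gene names come from GEO's annotation of the platform, brought up to date with RefSeq, and a gene with several clusters took its brightest. Of 22011 clusters, 14432 had 1 symbol, 2408 several and 5171 none listed; of 287329 probesets, 261273, 9155 and 16901. Values were taken as log2(intensity + 16), and the 40% of features with the lowest mean log2 value over all 4 arrays were dropped as dim. The fit used limma 3.58.1 under R 4.3.3, with eBayes and an intensity trend, 2 residual degrees of freedom and no covariate, two-sided and with Benjamini-Hochberg adjustment. The 9 genes, the lists and the tests were chosen with earlier results of these data known. The text names all 9 genes, ITGA3, some of the up to 4 members with the smallest p of each of 7 lists, and the 3 genes most like TXNRD1; single probesets and markers were named after their values were seen. The series description says of the replicates only that they are biological, and 4 arrays limit the precision. Exon usage needed at least 3 tested probesets per gene. The gene-level, exon-level and exon-usage fits were also run on simulated data, while the fit of exon-level medians and diffSplice were not. Promoter sequences are from RefSeq (GRCh38.p14). Plots used matplotlib 3.10.9 in Python 3.11.15.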

Additional observations from a re-analysis of the deposited data

How the results depend on the processing

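The settings varied were the offset, the filter on dim features, the variance model, the scaling of arrays (quantile or centring), the replicate number as a block, each array left out, exon-level medians and diffSplice. Of the 14 settings run for single genes (diffSplice tests probesets alone), TXNRD1 was called higher in all and GCLM in 13, the exception being the fit without knockdown replicate 2. Genes called higher among the 6 numbered 1 to 2 with 1 array left out, and genes called lower numbered 1 throughout except 0 with exon-level medians. Member probesets called higher (25) became 0 with no filter, 3 with no intensity trend and 15 to 23 with 1 array left out. Those called lower (1) became 0 with no filter, 0 with no trend, 8 with the replicate block and 0 to 2 with 1 array left out. Of the 8, 5 were of NQO1 and 2 of GCLC. Exon usage gave 1 call with the replicate block (FTL probeset 3838103, adjusted p = 0.00417) and 1 with diffSplice. List genes called higher (7) became 13 with quantile normalization, 14 with centring, 13 with the replicate block and 3 to 6 with 1 array left out. Those called lower (20) became 13 with no filter, 13 with centring and 5 to 18 with 1 array left out. The replicate numbers share no stated batch or day, and deviations of same-numbered arrays correlated at 0.290 at the gene level. CAT passed with the replicate block (adjusted p = 0.0238). Over all clusters, the counts higher and lower were 485 and 1511 with no filter, 1324 and 2741 with the replicate block, 485 and 1089 with exon-level medians, and 166 to 909 and 632 to 1906 with 1 array left out. Over all probesets they were 43 and 120 with no filter, 379 and 1314 with no trend, 10755 and 18202 with the replicate block, and 753 to 2110 and 2161 to 3257 with 1 array left out. Usage calls over all probesets ranged from 21 to 1455. The causes of these shifts were not tested. A fit on 3 arrays gives the lone array the spread seen in the pair. Dim features, HMOX1 among them, could not be judged against background, since the files used hold no detection call.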

Other observations

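Of the 7 genes of the listed pathways that were too dim for the test, 5 had groups that did not overlap. Such separation was common on these arrays. Among all clusters tested, both knockdown arrays lay above both controls in 22.3% and below both in 39.6%. The share among dim clusters was not computed. SESN3, a sestrin, read 9.67 and 7.27 in knockdown, against 127 and 132 in control. PIR, an iron-binding nuclear protein known as an NRF2 target, read 136 and 158 in knockdown, against 62.8 and 68.2 in control. AKR1C3, an aldo-keto reductase known as an NRF2 target, read 46.4 and 68.3 in knockdown, against 107 and 104 in control. The iron exporter gene SLC40A1 read 92.4 and 79.5 in knockdown, against 133 and 119 in control. The glutathione peroxidase gene GPX2 read 45.5 and 36.3 in knockdown, against 55.7 and 87.2 in control. These 5 genes were chosen after their values were seen, and no test was run on them.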
